A study of Nicotiana tabacum with 6 samples.

Results

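A set of 10 genes of oxylipin metabolism and jasmonate perception was followed in leaves of tobacco (Nicotiana tabacum, cultivar Petit Havanna in the labels' spelling) that carried or lacked a plastid photosystem gene. They are the lipoxygenase genes loxC, loxD, LOXB and TomloxE, the allene oxide synthase gene AOS, the allene oxide cyclase gene AOC, the oxophytodienoate reductase genes OPR1, opr2 and OPR3, and the receptor gene COI1. Members were the probe sets that the platform's 2007 annotation gives one of these symbols. This found 10 probe sets, 1 for each of the 10 genes, among 10101 tested and 909 with a gene symbol, and no filter on low values removed any. They were chosen by name, not by their values on these arrays, although earlier results of these arrays were known.

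The study measured total leaf RNA on 6 Affymetrix tomato arrays. Of these, 2 came from plants with a deletion of psbA, which encodes the D1 core subunit of photosystem II in the plastid. A further 2 came from plants with a deletion of psaA, which encodes a core subunit of photosystem I, and 2 from wild type. Per the labels, plants were raised in tissue culture at low light, in days of 16 h of light and nights of 8 h. The selection medium held 500 mg/L spectinomycin, and leaves were taken 2 to 3 weeks after subculture. The growth text is the same for the 3 groups, but the labels do not settle whether wild type received the drug. If it did not, drug and deletion cannot be told apart in any comparison with wild type. The 2 arrays of a group are named independent biological replicates, with no word on separate plants or lines, so p-values measure only the spread between these arrays.

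The deposited values are centred, so that each probe set has a median of 0 over the 6 arrays. They keep differences between arrays and hold no signal level, so members cannot be compared in abundance, and how far a probe set lay above background is not known. Tobacco RNA was read with tomato probes, and the roles given below are those of the tomato genes. With 2 arrays per group the number of arrays sets the precision, with a median standard error (SE) of 0.12 for a log2 difference over all probe sets. Replicate arrays differed with an SD over probe sets of 0.206 to 0.229, against 0.308 to 0.371 for arrays of different groups. The identity of the leaf tissue could not be checked by level, for the same reason. Of 4 probe sets for leaf photosynthesis genes, 3 fell in the psbA mutant and 4 in the psaA mutant, each against wild type, by the threshold defined below. By it 5.76% and 6.06% of all probe sets were called lower in these comparisons. In bulk leaf RNA, fewer cells of a type and less RNA per cell cannot be told apart.

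Jasmonates are lipid hormones made from linolenic acid of plastid membranes. In the plastid a lipoxygenase oxygenates the fatty acid, allene oxide synthase and allene oxide cyclase turn the product into oxophytodienoic acid, and in the peroxisome OPR3 reduces it on the way to jasmonic acid. The isoleucine conjugate of jasmonic acid is perceived by COI1, an F-box protein, which releases the wound and defence programme. Other lipoxygenase products go elsewhere: hydroperoxide lyase makes leaf and fruit volatiles from them, and divinyl ether synthase turns them into divinyl ethers.

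Of the 4 lipoxygenase genes, loxC was lower in both mutants than in wild type, and loxD was lower in the psbA mutant and higher in the psaA mutant. AOC was highest in the psaA mutant, against wild type as well as against the psbA mutant. Also opr2 fell in the psbA mutant, narrowly. LOXB, TomloxE, AOS, OPR1, OPR3 and COI1 passed in none of the 3 comparisons. A change is an adjusted p under 0.05 in limma, a linear model with moderated variances fitted to all 6 arrays, with two-sided p-values and Benjamini-Hochberg adjustment across the 10101 probe sets. By this rule 0 members rose and 3 fell in the psbA mutant against wild type, where 11.2% of all probe sets were called, 5.41% as higher and 5.76% as lower. In the psaA mutant against wild type 2 rose and 1 fell, where 10.7% of all were called, 4.66% as higher and 6.06% as lower. Between the mutants 0 were higher and 2 lower in the psbA mutant, where 3.98% of all were called, 1.78% as higher and 2.2% as lower. The ordinary test without moderated variances (without eBayes), on 3 residual degrees of freedom, called 0 members in each comparison, where 3.34% (psbA against wild type), 3.68% (psaA against wild type) and 0.386% (psbA minus psaA) of all were called. At an unadjusted p under 0.05 limma gave 5 members in the psbA mutant against wild type, where 24.5% of all probe sets passed. It gave 5 in the psaA mutant against wild type (23.8% of all) and 3 between the mutants (17.8% of all).

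**Figure D1:**
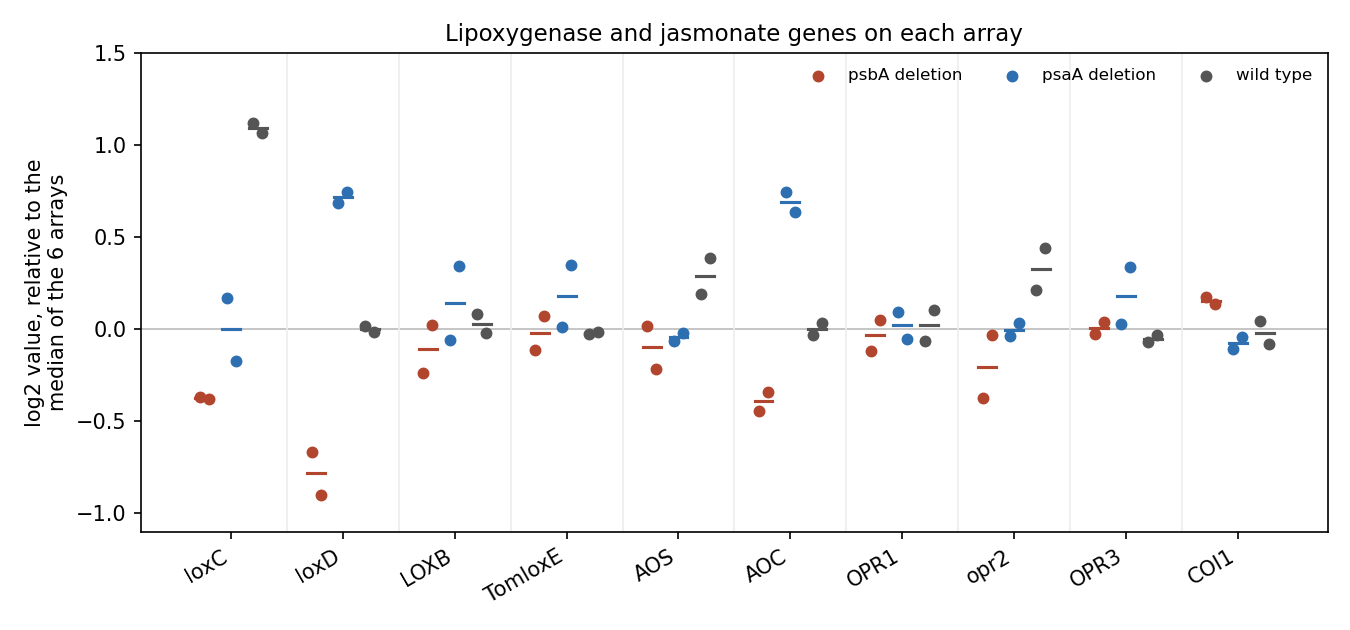
Log2 values of the 10 genes on each of the 6 arrays, relative to the median of the 6 arrays. Points are arrays and short bars the mean of 2 arrays per genotype. For loxC both wild-type arrays lie above 1, while loxD and AOC are highest in the psaA mutant and lowest in the psbA mutant.

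The gene loxC (gene ID 544008) encodes a plastid lipoxygenase that in tomato feeds the synthesis of short-chain volatiles. Its log2 values were -0.37 and -0.38 on the psbA arrays, 0.17 and -0.17 on the psaA arrays, and 1.12 and 1.06 on the wild-type arrays. Both mutants lay well below wild type, without overlap, and the psaA arrays differed more from each other than those of the other groups. Against wild type loxC was 2.76-fold lower in the psbA mutant (log2 difference -1.46, SE 0.13, 95% interval -1.77 to -1.16, limma adjusted p = 0.000473, n = 2 per group). For the psaA mutant the fall was 2.13-fold (log2 difference -1.09, SE 0.13, interval -1.39 to -0.79, adjusted p = 0.00127). Only 0.307% of probe sets differed more from wild type in the psbA mutant, and 1.41% in the psaA mutant. The 2 comparisons share the wild-type arrays. The direct difference between the mutants, psbA minus psaA, was -0.37 (interval -0.67 to -0.07, limma adjusted p = 0.18) and did not pass. The 2 groups did not overlap, which held for 47.7% of all probe sets.

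The gene loxD (544009) encodes the wound-inducible plastid lipoxygenase of jasmonate synthesis. It stood at -0.67 and -0.90 on the psbA arrays, 0.69 and 0.75 on the psaA arrays, and 0.02 and -0.02 on the wild-type arrays. The 3 groups did not overlap, with wild type between the mutants. The difference from wild type was -0.78 in the psbA mutant (1.72-fold lower, SE 0.12, interval -1.05 to -0.52, limma adjusted p = 0.00415). It was 0.72 in the psaA mutant (1.64-fold higher, SE 0.12, interval 0.45 to 0.98, adjusted p = 0.00598). Without psaA replicate 2 the rise in the psaA mutant did not pass (0.69, adjusted p = 0.0543). The psbA mutant was 2.83-fold below the psaA mutant (-1.50, SE 0.12, interval -1.77 to -1.23, adjusted p = 0.000411), and 0.238% of probe sets differed more.

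The other lipoxygenase genes, LOXB (543997) and TomloxE (543818), belong to the lipoxygenases of ripening tomato fruit. LOXB had values of -0.24 and 0.02 on the psbA arrays, -0.06 and 0.34 on the psaA arrays, and 0.08 and -0.02 on the wild-type arrays. TomloxE had -0.12 and 0.07 on the psbA arrays, 0.01 and 0.35 on the psaA arrays, and -0.03 and -0.01 on the wild-type arrays. For both genes the high value was that of psaA replicate 2, and psaA replicate 1 lay near wild type. The 95% intervals of their differences from wild type ran from -0.50 to 0.22 (LOXB) and from -0.32 to 0.32 (TomloxE) in the psbA mutant. In the psaA mutant they ran from -0.25 to 0.47 and from -0.11 to 0.52. The 4 lipoxygenase genes gave 2 falls in the psbA mutant, where 5.76% of all probe sets were called lower. In the psaA comparison they gave 1 rise and 1 fall, where 4.66% were called higher and 6.06% lower. The directions of loxC and loxD held under each of the 3 other scalings of the arrays tried.

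AOS (606711), whose product commits the hydroperoxide to the jasmonate branch, was at 0.02 and -0.21 on the psbA arrays, -0.06 and -0.02 on the psaA arrays, and 0.19 and 0.39 on the wild-type arrays. Wild type was above both mutants without overlap. Of all probe sets 52.7% (psbA against wild type) and 53.7% (psaA against wild type) also did not overlap, in either direction. The differences from wild type were not called, being -0.39 in the psbA mutant (interval -0.67 to -0.10, limma adjusted p = 0.0941) and -0.33 in the psaA mutant (interval -0.62 to -0.04, adjusted p = 0.151). Between the mutants AOS differed by -0.06 (psbA minus psaA, interval -0.34 to 0.23).

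AOC (544306), which closes the ring of the jasmonate precursor, was at -0.44 and -0.34 on the psbA arrays, 0.74 and 0.64 on the psaA arrays, and -0.03 and 0.03 on the wild-type arrays. As for loxD, the 3 groups did not overlap and wild type lay between the mutants. Against wild type AOC was 1.61-fold higher in the psaA mutant (0.69, SE 0.11, interval 0.44 to 0.94, limma adjusted p = 0.0049), a call lost with poly-A scaling (0.46, adjusted p = 0.0607). In the psbA mutant its difference from wild type was -0.39 (interval -0.64 to -0.14) and missed the threshold (adjusted p = 0.0543). The psbA mutant was 2.12-fold below the psaA mutant (-1.08, SE 0.11, interval -1.33 to -0.83, adjusted p = 0.00136), and 0.683% of probe sets differed more.

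In both loxD and AOC the psaA arrays were the highest and the psbA arrays the lowest. AOS, the step between their products, had another order, with wild type highest and the mutants overlapping each other, as opr2 had. In loxC wild type was also highest, and the psaA arrays lay above the psbA arrays.

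Of the 3 reductase genes, opr2 was called in the psbA mutant. OPR3 (543763) encodes the peroxisomal reductase that acts in jasmonate synthesis. The tomato enzyme of OPR1 (544239) acts poorly on the natural precursor, and opr2 (543762) is a further member of the family. The opr2 values were -0.38 and -0.03 on the psbA arrays, -0.04 and 0.03 on the psaA arrays, and 0.21 and 0.44 on the wild-type arrays. Wild type lay above both mutants, and the psbA arrays were 0.34 apart. The difference from wild type was -0.53 in the psbA mutant (1.45-fold lower, SE 0.14, interval -0.86 to -0.20, limma adjusted p = 0.0495). It was -0.33 in the psaA mutant (interval -0.66 to -0.0011, adjusted p = 0.209). The psbA call was lost without psbA replicate 1 (-0.36, adjusted p = 0.204), without wild-type replicate 1 (-0.65, adjusted p = 0.0873) and without wild-type replicate 2 (-0.42, adjusted p = 0.241). It was lost as well with hybridisation-control scaling (adjusted p = 0.0589), with quantile normalization (0.0703), in a fit on only the 4 arrays compared (0.0886) and with robust eBayes (0.0526).

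OPR3 stood at -0.03 and 0.04 on the psbA arrays, 0.03 and 0.34 on the psaA arrays, and -0.07 and -0.03 on the wild-type arrays. As for LOXB and TomloxE, psaA replicate 2 was the highest array. OPR1 was at -0.12 and 0.05 on the psbA arrays, 0.09 and -0.05 on the psaA arrays, and -0.06 and 0.11 on the wild-type arrays. It had the narrowest range of the 10 genes, 0.23, and 90.9% of all probe sets ranged more widely. The intervals for OPR3 against wild type were -0.23 to 0.35 in the psbA mutant and -0.06 to 0.53 in the psaA mutant. For OPR1 they were -0.33 to 0.22 in the psbA mutant and -0.28 to 0.28 in the psaA mutant.

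COI1 (543911), the jasmonate receptor gene, was at 0.17 and 0.14 on the psbA arrays, -0.11 and -0.04 on the psaA arrays, and 0.04 and -0.08 on the wild-type arrays. The psbA arrays were the highest and did not overlap with the others. The differences were small and none passed: 0.17 for psbA minus wild type (interval -0.07 to 0.42, limma adjusted p = 0.372), -0.06 for psaA minus wild type (interval -0.30 to 0.19, adjusted p = 0.806), and 0.23 for psbA minus psaA (interval -0.01 to 0.47, adjusted p = 0.307). Scaled on the poly-A controls, COI1 in the psbA mutant turned to -0.29 against wild type.

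**Figure D2:**
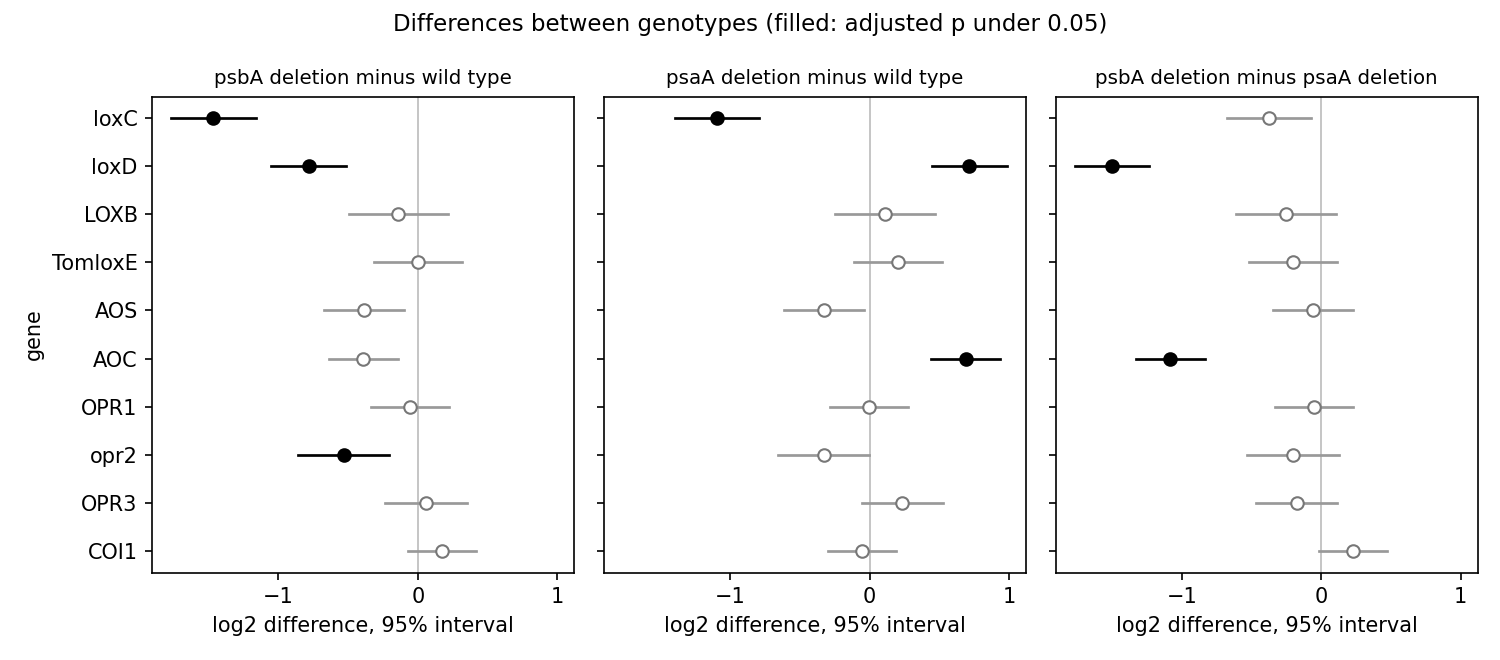
Log2 differences of the 10 genes in the 3 comparisons, with 95% intervals from limma (n = 2 arrays per group). Filled points have an adjusted p under 0.05. The loxC difference is negative in both comparisons with wild type, and that of loxD is -0.78 for psbA and 0.72 for psaA.

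Over the 10 members the median log2 difference was -0.26 in the psbA mutant and 0.05 in the psaA mutant, each against wild type, and -0.20 for psbA minus psaA. The medians over all probe sets were 0.02, 0.02 and 0.02. Arrays of the 2 groups did not overlap for 7 members in the psbA mutant against wild type (52.7% of all probe sets), for 7 in the psaA mutant against wild type (53.7%) and for 4 between the mutants (47.7%). The 5, 5 and 3 members at an unadjusted p under 0.05 in limma stand against 24.5%, 23.8% and 17.8% of all probe sets.

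The values depend on how the arrays are scaled. Shifting each array so that the added poly-A control RNAs were equal moved the median of all probe sets to -0.44 in the psbA mutant against wild type, to -0.22 in the psaA mutant against wild type and to -0.20 for psbA minus psaA. With this scaling the share of calls that were higher was 1.67% in the psbA comparison, 9.23% in the psaA comparison and 7.49% between the mutants. As deposited these shares were 48.4%, 43.5% and 44.8%. With poly-A scaling 9 of the 10 members fell in the psbA mutant, where 60.5% of all probe sets were called, 1.01% as higher and 59.5% as lower. Among the psaA values loxC, AOS and opr2 fell and loxD rose (0.48, adjusted p = 0.0426), while AOC gave 0.46 (adjusted p = 0.0607), where 14.9% of all were called, 1.38% as higher and 13.5% as lower. Between the mutants loxC, loxD and AOC were lower in the psbA mutant, where 8.06% of all were called, 0.604% as higher and 7.45% as lower. The shift is the same for every probe set of an array, so the differences of the members relative to each other are as given above.

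**Figure D3:**
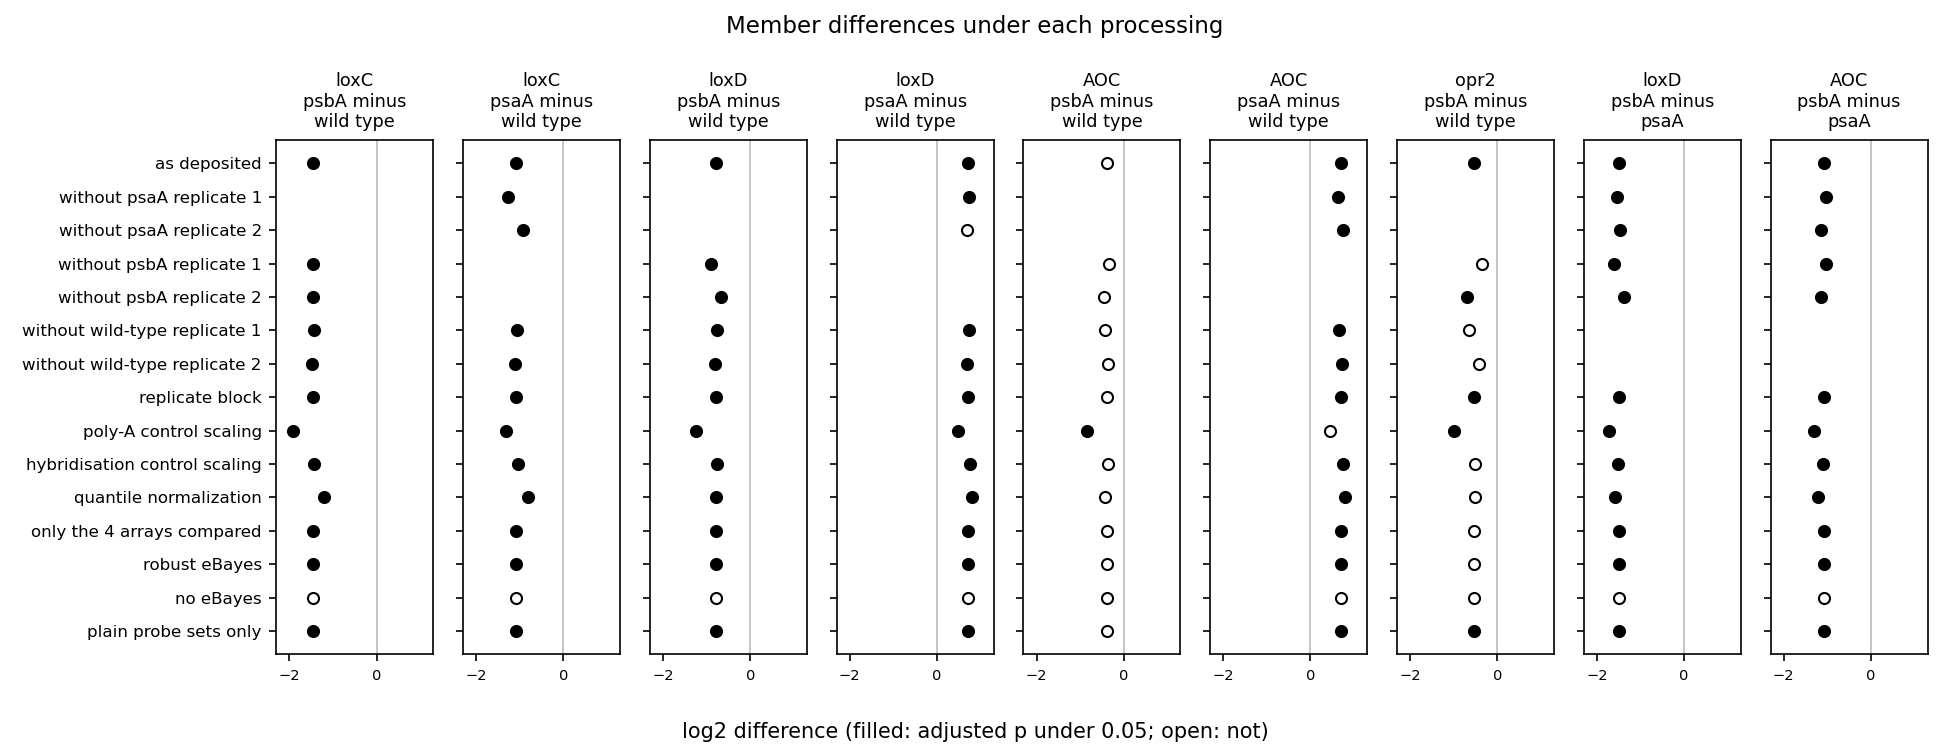
Log2 differences of loxC, loxD, AOC and opr2 under each processing tried, with 1 panel per gene and comparison. Filled points have an adjusted p under 0.05 and open points do not. With no eBayes, the ordinary test on 3 residual degrees of freedom, the points are all open.

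A sign of RNA quality moved in the order of loxD and AOC. The 3' minus 5' difference of the actin, gapdh and ef1a control probe sets differed between the mutants by -0.40, -0.36 and -0.40 (psbA minus psaA). Against wild type it was -0.13, -0.08 and -0.09 in the psbA mutant, and 0.27, 0.28 and 0.31 in the psaA mutant. The ubiquitin probe sets gave 0.02 between the mutants, 0.32 in the psbA mutant against wild type and 0.30 in the psaA mutant against wild type. Ubiquitin thus set both mutants apart from wild type, a split of the groups also seen for loxC, AOS and opr2. The part of RNA quality in the differences of loxD, AOC, loxC or any other gene given here was not tested.

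Genes around the pathway were read from lists of tomato symbols. Of 31 symbols for further oxylipin and lipid enzymes, 7 genes were on the array with a symbol, each with 1 probe set. Against wild type 2 fell in the psbA mutant and 5 missed the threshold (median -0.30). The psaA mutant had 1 rise, 1 fall and 5 not passing (median 0.10). Between the mutants 1 was lower and 6 did not pass. Of all probe sets 11.2%, 10.7% and 3.98% were called in these comparisons, and each median was 0.02.

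Fad7, the plastid desaturase that makes linolenic acid, the substrate of the pathway, fell in both mutants. Its values were 0.02 and -0.16 on the psbA arrays, -0.02 and -0.13 on the psaA arrays, and 0.48 and 0.75 on the wild-type arrays. Against wild type it was 1.61-fold lower in the psbA mutant (-0.68, SE 0.13, limma adjusted p = 0.0126) and 1.61-fold lower in the psaA mutant (-0.68, adjusted p = 0.0125). In the psbA comparison the adjusted p was above the threshold without psbA replicate 2 (adjusted p = 0.0772) or wild-type replicate 2 (0.0885). In the psaA comparison it was above the threshold without psaA replicate 1 (0.0606), psaA replicate 2 (0.0976) or wild-type replicate 2 (0.0899). Without eBayes it was 0.138 in the psbA comparison and 0.143 in the psaA comparison.

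The phospholipase D genes PLDb1 and PLDa1, whose enzymes release phosphatidic acid from membrane lipids, gave 1 fall in the psbA mutant and 1 rise in the psaA mutant. Of all probe sets 5.76% were called lower and 4.66% higher in these comparisons. Between the mutants 1 of the genes was lower in the psbA mutant, where 2.2% of all probe sets were. PLDb1 had values of -0.76 and -0.69 on the psbA arrays, 0.37 and 0.26 on the psaA arrays, and -0.09 and 0.09 on the wild-type arrays. Its order over the groups was that of loxD and AOC, and of the 3' minus 5' differences of actin, gapdh and ef1a given above, whose part in it was not tested. Against wild type it was 1.66-fold lower in the psbA mutant (-0.73, SE 0.11, limma adjusted p = 0.00529) and against the psaA mutant it was 2.06-fold lower (-1.04, adjusted p = 0.00196). Without eBayes neither passed (adjusted p = 0.0733 and 0.0882). The psaA arrays differed from wild type by 0.31, which was not called (adjusted p = 0.134).

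PLDa1 stood at -0.0020 and -0.07 on the psbA arrays, 0.49 and 0.39 on the psaA arrays, and -0.21 and 0.0020 on the wild-type arrays. It rose 1.46-fold in the psaA mutant against wild type (0.54, SE 0.12, limma adjusted p = 0.0209), a call lost without psaA replicate 1 (adjusted p = 0.132), psaA replicate 2 (0.0779) or wild-type replicate 1 (0.133), with poly-A scaling (0.18) and without eBayes (0.12). In the psbA mutant against wild type it gave 0.06 (adjusted p = 0.795). With poly-A scaling this turned to -0.40 and passed (limma adjusted p = 0.036), where 59.5% of all probe sets were called lower.

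The enzymes that draw on lipoxygenase products, and further oxygenases, did not pass. The hydroperoxide lyase gene HPL had wide gaps between replicates, at -0.72 and -0.15 on the psbA arrays, -0.19 and 0.35 on the psaA arrays, and 0.44 and 0.15 on the wild-type arrays. Its difference from wild type was -0.73 in the psbA mutant (SE 0.23, limma adjusted p = 0.0806). The divinyl ether synthase gene DES had -0.0073 and 0.0073 on the psbA arrays, -0.10 and -0.05 on the psaA arrays, and 0.30 and 0.30 on the wild-type arrays. Wild type was thus above both mutants, with differences of -0.30 in the psbA mutant (adjusted p = 0.103) and -0.38 in the psaA mutant (adjusted p = 0.0508). For LOX1.1, another lipoxygenase gene, and ALPHA-DOX2, an alpha-dioxygenase gene, the differences ran from -0.20 to 0.22 over the 3 comparisons.

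Among the kinases of wound signalling, 3 genes with 5 probe sets carried a listed symbol. MPK3, a mitogen-activated protein kinase gene, had 3 of these. Against wild type 2 of the 5 fell in the psbA mutant, where 5.76% of all probe sets were called lower. In the psaA mutant 2 rose, where 4.66% of all were called higher. Between the mutants 2 were lower in the psbA mutant, where 2.2% of all were. The calls were all at probe sets of 1 gene, MPK3. At its first probe set the values were -1.70 and -1.74 on the psbA arrays, 0.56 and 0.66 on the psaA arrays, and -0.08 and 0.08 on the wild-type arrays, the order of groups seen for loxD, AOC and the same 3' minus 5' differences, whose part was again not tested. It gave -1.72 in the psbA mutant (limma adjusted p = 0.000165) and 0.61 in the psaA mutant (adjusted p = 0.0093), the rise being lost without psaA replicate 2 (0.0765) or wild-type replicate 1 (0.0747), with poly-A scaling (0.101) and without eBayes (0.0707). Its other called probe set, set 3 of the plot of related genes, gave -0.99 (adjusted p = 0.014) and 0.89 (adjusted p = 0.0231), and the remaining one passed in no comparison. Between the mutants the first probe set differed by -2.33 (adjusted p = 5.13e-05) and set 3 by -1.88 (adjusted p = 0.00147), the set 3 call being lost without eBayes (adjusted p = 0.145). For set 3 the psbA call was lost without either wild-type array (adjusted p = 0.0883 and 0.0722), and the psaA call with any of the 4 arrays left out (adjusted p from 0.0993 to 0.128), and both without eBayes (0.216 and 0.253). The 2 kinase genes MPK2, which acts in tomato in the systemin response upstream of jasmonate synthesis, and CDPK1, a calcium-dependent kinase gene, passed in none. MPK2 gave -0.03 in the psbA mutant and 0.16 in the psaA mutant, each against wild type, and CDPK1 gave 0.29 and 0.18.

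Of the wound and jasmonate targets, 5 genes with 7 probe sets carried a listed symbol and none of the probe sets passed in any of the 3 comparisons, whose medians were 0.01 (psbA against wild type), -0.08 (psaA against wild type) and 0.03 (psbA minus psaA). Among all probe sets 11.2%, 10.7% and 3.98% were called in these comparisons. At an unadjusted p under 0.05 in limma there was 1 in each comparison with wild type and 0 between the mutants, the 1 being the arginase gene ARG1. The shares of all probe sets at that threshold were 24.5% (psbA against wild type), 23.8% (psaA against wild type) and 17.8% (psbA minus psaA). ARG1 gave 0.33 in the psbA mutant (adjusted p = 0.119) and 0.43 in the psaA mutant (adjusted p = 0.0514). ARG2, the wound-inducible arginase gene of tomato, had 3 probe sets, which gave 0.09, -0.04 and -0.13 in the psbA mutant, and 0.18, -0.08 and -0.24 in the psaA mutant. TD2, a threonine deaminase gene of leaf defence, gave -0.11 in the psbA mutant and -0.08 in the psaA mutant, and MYC2 gave 0.01 and -0.02.

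**Figure D4:**
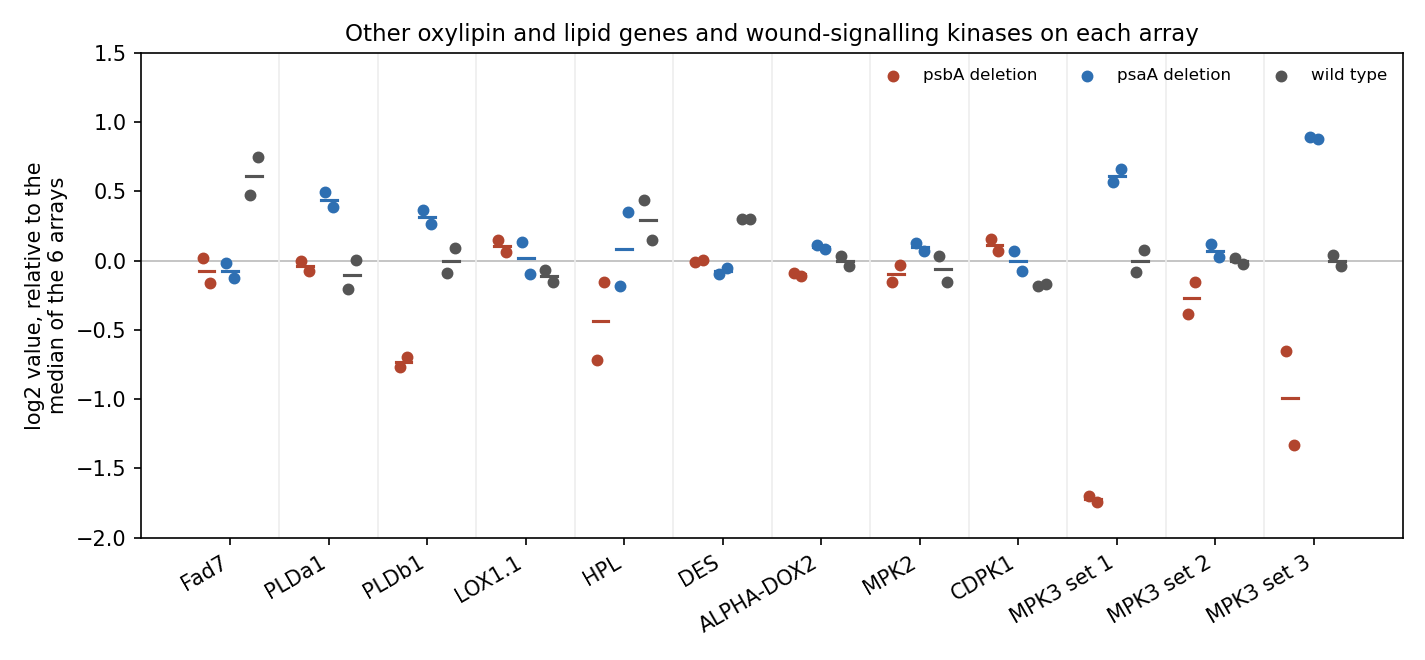
Log2 values of further oxylipin and lipid genes and wound-signalling kinase genes on each of the 6 arrays, relative to the median of the 6 arrays, with MPK3 shown at its 3 probe sets. Points are arrays and short bars the mean of 2 arrays per genotype. Both wild-type arrays are highest for Fad7, while PLDb1 and MPK3 sets 1 and 3 are highest in the psaA mutant and lowest in the psbA mutant.

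For the members that were called, the 3 named genes with the highest Pearson's r over the 6 arrays were found among 702 probe sets with a symbol that is not a LOC number. The r is over 6 arrays in 3 groups and describes only a likeness of pattern over the arrays, not of the size of the differences. For loxD they were FPPS1, a farnesyl diphosphate synthase gene (r = 0.993), Rab1A, a small GTPase gene (0.992), and MPK3 (0.989). For AOC they were rem-2 (0.994), whose values ran only from -0.07 to 0.12 against -0.44 to 0.74 for AOC, pip1 (0.989) and LEA14 (0.988). For loxC they were mdh (0.969), TBG6, a beta-galactosidase gene (0.967), and the plastid chaperonin gene CPN21 (0.957). For opr2 they were LHP1 (0.966), BMY3 (0.947) and the chitinase gene CHI17 (0.918).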

How the data were processed

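Leaf RNA of 6 samples in 3 groups of 2 was hybridised to 1 tomato array each, from 5 ug of total RNA per the labels. The authors deposited values for 10209 probe sets, read here as log2. RMA and GCRMA are named, per the submitters' processing notes, without versions or which made the table. The log base is not stated. Base 2, the usual output of these methods, was assumed, and each fold change rests on it. Row medians were 0 within 1e-06, so the deposited values were centred per probe set. The 108 control probe sets were left out. Symbols came from the platform annotation of 2007, in which 9192 of the tested probe sets have none. The fit used limma 3.58.1 in R 4.3.3 with 3 residual and 5.39 prior degrees of freedom, on all 6 arrays, and was tested on simulated data. There, for psaA minus wild type only, 49.5% of log2 changes of 0.5 were recovered and 99.7% of changes of 1. Each draw changed 200 of 10101 probe sets, fewer than the 1083 called in that comparison as deposited. The adjustment depends on how many probe sets change, so these shares need not hold for the arrays. Members that were not called may thus still differ. Plots used matplotlib 3.10.9. Intervals are at 95%. The members, lists and alternatives were chosen with earlier results of these data known. Named were the 10 members, list genes called in at least 1 comparison with further list genes as examples, and 3 nearest genes per called member. Over all probe sets, the differences between replicates 1 and 2 were not correlated between groups (r = 0.02, -0.0049 and -0.0086). No shared effect of the replicate number was thus seen over the array as a whole. Whether arrays were handled in pairs cannot be told from these values. Lists for epidermis and xylem matched 0 symbols in the annotation. Root and meristem markers had 3 and 1 probe sets, of which, as deposited, 1 root marker rose and 1 fell in the psbA mutant and 0 passed in the psaA mutant or between the mutants. Of all probe sets 5.41% were called higher and 5.76% lower in the psbA comparison. In the psaA comparison 10.7% were called, and between the mutants 3.98%. Sequences and genome positions are not used here.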

Additional observations from a re-analysis of the deposited data

Results flagged for a closer look

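The 2 deletion mutants differed from each other for 2 members, by the direct test of psbA minus psaA in limma, where 3.98% of all probe sets were called. For loxD the difference was -1.50 (adjusted p = 0.000411), with both psbA arrays below wild type and both psaA arrays above it. For AOC it was -1.08 (adjusted p = 0.00136), with the same order of arrays. Both passed with each of the 4 mutant arrays left out in turn, with log2 differences from -1.62 to -1.38 for loxD and from -1.14 to -1.03 for AOC, and neither passed without variance moderation (adjusted p = 0.0634 and 0.0616). Groups of 2 arrays are too small for a check of single outlying arrays. The 3' minus 5' differences of actin, gapdh and ef1a were also lower in the psbA mutant than in the psaA mutant (-0.40, -0.36 and -0.40). Ubiquitin gave 0.02. The part of RNA quality in the loxD and AOC differences was not tested.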

How the results depend on the processing

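Each member's log2 difference was recomputed under 14 other processings, which gave 360 values. Of these 318 kept their direction and their side of the threshold, 17 kept the direction and lost the call, 8 kept it and gained one, and 17 changed sign, all of them differences not called as deposited. With poly-A scaling the psbA comparison with wild type called 6110 probe sets and 9 members, and psbA minus psaA called 814 probe sets. Signs turned there for OPR3 (-0.40), COI1 (-0.29) and PLDa1 (-0.40) in the psbA mutant, and for LOXB (-0.12) and TomloxE (-0.032) in the psaA mutant, each against wild type. The turned values of OPR3 (limma adjusted p = 0.0406) and PLDa1 (0.036) passed, where 59.5% of all probe sets were called lower. Those of COI1, LOXB and TomloxE did not pass. Poly-A scaling shifts every probe set of an array alike, and with the control values of these arrays it moved all differences down. With hybridisation-control scaling TomloxE turned to 0.024 in the psbA mutant and OPR1 to 0.044 in the psaA mutant. A fit on only the 4 arrays compared called 266 probe sets between the mutants. The ordinary test without eBayes has 3 residual degrees of freedom and called 0 members in each of the 3 comparisons, with 337 (psbA against wild type), 372 (psaA against wild type) and 39 (psbA minus psaA) probe sets. As deposited the counts were 1128, 1083 and 402.

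With 1 array left out, which leaves 1 array in its group that is assumed to vary like the others, the psbA comparison called 509 to 668 probe sets and 2 or 3 members. The psaA comparison called 494 to 563 and 2 or 3 members, and psbA minus psaA 115 to 197 and 2 members. In the psbA mutant against wild type TomloxE ran from -0.095 to 0.094, OPR1 from -0.14 to 0.030 and PLDa1 from -0.039 to 0.17. For the psaA mutant LOXB ran from -0.090 to 0.31, OPR1 from -0.086 to 0.083 and COI1 from -0.12 to 0.0029. Between the mutants AOS ran from -0.17 to 0.059, OPR1 from -0.14 to 0.032 and Fad7 from -0.090 to 0.089. The falls of loxC in both mutants, of loxD and PLDb1 in the psbA mutant, the rise of AOC in the psaA mutant and the loxD, AOC and PLDb1 differences between the mutants were called with each array left out, and none of these without eBayes.

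With the replicate block the members called were the same in number: 3 in the psbA comparison, 3 in the psaA comparison and 2 between the mutants, from 965, 916 and 301 probe sets in all. Brightness over background, which would limit dim probe sets, is lost by the centring, so a filter on dim probe sets could not be run. Where no cause is named, the cause was not tested.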
